A study of Mus musculus with 2 samples.

Results

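The genes of autophagy and of nutrient sensing by the kinase TOR were compared between 2 cultures of BV2, an immortalized line of mouse microglia. A list of 51 genes was fixed by name: 39 of autophagy, grouped by role from initiation to transcriptional control, and 12 of TOR signalling. Of these, 50 were measured among the 19938 genes of the arrays, and Optn, which encodes the cargo receptor optineurin, had no cluster of its own in the annotation used here. The first culture was kept in DMEM, a standard medium that the paper gives as high in glucose. The other was in DMEM/F12, a medium with additional amino acids, metal ions, vitamins and hypoxanthine. Concentrations of glucose and of the amino acids present in both media were not compared. Both cultures had been plated in DMEM/F12 and received the same serum and antibiotics. Only 1 of them was switched to DMEM for 1 day, so the DMEM cells are those that had left DMEM/F12. The labels give the time in the test medium as over 1 day. BV2 is a single line, and each medium is represented by RNA of 1 culture on 1 Affymetrix Mouse Gene 1.0 ST array. There are therefore no replicates, no test between media was possible, and each difference below describes these 2 arrays.

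Autophagy encloses cytoplasm in a new double membrane, the autophagosome, and delivers it to the lysosome, where the contents are broken down and returned to the cell as nutrients. The TOR kinase in its complex TORC1 sits on the lysosome when amino acids are plentiful, promotes growth and holds autophagy back by phosphorylating the ULK1 complex and the transcription factor TFEB. In microglia the same machinery also serves the clearance of engulfed debris and protein aggregates. Much of this control is exerted on proteins, by phosphorylation, lipid conjugation and location, which an expression array does not see.

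Each value is a deposited log2 expression value, averaged over the transcript clusters (groups of probes) that the annotation pairs with the gene alone, and each difference is DMEM/F12 minus DMEM. Background was taken as the 95th percentile of 1248 sensory receptor clusters (olfactory, vomeronasal and taste), which was 4.15 in DMEM and 4.17 in DMEM/F12, and 13225 genes exceeded it in either medium. Of the measured autophagy and TOR genes 49 of 50 were above background, counting a gene if any of its clusters was. Gabarapl2 and Mitf passed through only 1 of their 2 clusters. Of 10 markers of microglia and macrophages 8 were above background, with Cd68 at 11.10 and 11.21 in DMEM and DMEM/F12. Aif1 (3.53 and 3.14) and the homeostatic microglial receptor gene P2ry12 (2.79 and 2.79) were not, and Tmem119, another homeostatic marker, was at 6.71 and 6.05. Above background were also 1 of 5 neuronal, 1 of 4 astrocyte, 2 of 3 measured oligodendrocyte and 3 of 5 fibroblast or endothelial markers. So were 13225 of all 19938 genes. The brightest of these markers was Col1a1 at 6.06 and 5.93, before Col1a2 (5.39 and 5.28) and Mbp (5.09 and 5.05). Rbfox3 (4.49 and 4.65), Slc1a2 (4.42 and 4.59), Mog (4.29 and 4.46) and Pdgfra (4.32 and 4.27) lay close to background. Whether these markers had a part in the differences below was not tested. In bulk RNA of a single line, fewer cells expressing a gene and less RNA per cell cannot be told apart.

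The promoters of the list were searched first, because TFEB and its relatives TFE3 and MITF bind the letters CACGTG, the core of the CLEAR element of lysosomal and autophagy genes. RefSeq promoter sequences (GRCm38.p6, 250 bases before to 50 bases after each annotated start) were found for 44 of the measured genes, and for 27025 genes in all. CACGTG, which reads the same on both strands, lay in the promoters of 8 of the 44 genes (18.2%) and of 8.09% of all genes. The shares of all genes were taken over genes at any level of expression, measured on the arrays or not. No enrichment was tested. The 8 windows printed here run from 20 bases before the first CACGTG to 20 bases after the last one, in the direction of transcription, with the motif in capitals. They end at the transcript start, or at the end of the motif where it crosses the start, as in Atg14 and Rragb. Distances are counted from the first letter of the motif to the start. Atg3, the E2-like enzyme that joins ATG8 proteins to membrane lipid, holds it at 94 and 71 bases before its start (chr16:45158715-45158783, plus strand). Rragb, a Rag GTPase of amino acid sensing, holds it at 127, 36 and 3 bases (chrX:153139811-153139960, plus strand). Single motifs begin 1 base before the start of Atg14, so that most of the motif lies in the transcript (chr14:47568430-47568455, minus strand), 14 before that of Atg5 (chr10:44268305-44268338, plus), 132 before that of Atg7 (chr6:114670944-114670989, plus) and 68 before that of Lamtor1 (chr7:101905749-101905794, plus). Those of Rheb (chr5:24842432-24842477, minus) and Rragc (chr4:123917301-123917346, plus) lie 96 and 112 bases before the start.
Atg3: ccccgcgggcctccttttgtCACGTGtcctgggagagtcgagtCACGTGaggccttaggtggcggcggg
Rragb: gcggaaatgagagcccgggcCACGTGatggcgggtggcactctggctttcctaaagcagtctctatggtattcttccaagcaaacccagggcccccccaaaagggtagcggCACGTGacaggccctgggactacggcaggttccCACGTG
Atg14: cctggataaaaacaaaatccCACGTG
Atg5: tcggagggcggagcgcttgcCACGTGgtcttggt
Atg7: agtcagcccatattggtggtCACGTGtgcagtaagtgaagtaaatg
Lamtor1: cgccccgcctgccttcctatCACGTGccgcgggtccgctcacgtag
Rheb: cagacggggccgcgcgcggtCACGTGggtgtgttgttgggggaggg
Rragc: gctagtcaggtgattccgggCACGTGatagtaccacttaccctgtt

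The genes with this motif did not share a direction between the media. Their differences ran from -0.37 for Atg3 to 0.22 for Atg14, with a median of 0.007, or of -0.045 over the 7 above background, without Rragb. The 36 genes with a promoter sequence but no CACGTG had a median of 0.015. The longer palindrome, CACGTG with GT before and AC after it, was in none of the 44 promoters and in 0.37% of all. TGACNNNGC, the core that the antioxidant factor NRF2 binds, was in 6 promoters (13.6%, against 14% of all), those of Atg13, Map1lc3b, Mitf, Rheb, Tax1bp1 and Ulk2, whose median difference was 0.015. In Rheb 1 of its 2 copies shares letters with CACGTG. Atg13 differed by 0.08, Map1lc3b by 0.01, Mitf by -0.14 (a mean of 2 clusters), Rheb by -0.10 and Tax1bp1 by 0.02. Only the window of Ulk2, the gene with the highest difference of the list, is printed here. Its motif lies 17 bases before the start (chr11:61855093-61855129, minus strand, motif in capitals).
Ulk2: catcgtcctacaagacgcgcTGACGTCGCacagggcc

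The letters TGATGNAA, the core bound by the amino acid response factor ATF4, and TGTTTAC, bound by FOXO factors, were in none of the 44 promoters and in 4.51% and 4.05% of all. All motifs were searched on both strands. A match is a run of letters and not a measured binding site.

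As a whole, the autophagy and TOR genes lay close between the media. In DMEM/F12 27 of the 50 genes (54%) had a higher value, 20 (40%) a lower one and 3 the same. Of all genes 47.2% were higher and 45.5% lower. The 27 include Rragb, which was not above background. The median difference was 0.015, beside 0.00 over all genes. With each array centred on its median the split was 24 higher and 25 lower, so which direction prevailed depended on the scaling. That centring also put the median over all genes at -0.02. The differences ran from -0.51 for Rraga to 0.45 for Ulk2, and their SD over genes was 0.18, beside 0.22 over all genes above background. At least 1.2-fold higher (0.263 on the log2 scale) were 4 genes, Ulk2, Atg4b, Ulk1 and Trp53inp2. That is 8% of the list, where 11.2% of all genes and 9.84% of those above background were as much higher. At least 1.2-fold lower were 2 genes, Rraga and Atg3, which is 4% of the list, where 10.5% of all genes and 9.67% of those above background were as much lower. In the deposited values neither share exceeds that of all genes. No gene of the list differed by 1.5-fold or more, as 0.928% of all genes did upward and 0.727% downward, and 0.786% and 0.635% of genes above background. The values near the 1.2-fold limit were 0.27 for Trp53inp2, just past it, and 0.26 for Sqstm1 and Tsc1 and 0.25 for Nbr1, just short of it. Removing a loess trend of difference on signal brought these 3 past the limit, so that 7 genes were higher and 2 lower. The share of all genes past it was not counted in that setting.

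**Figure D1:**
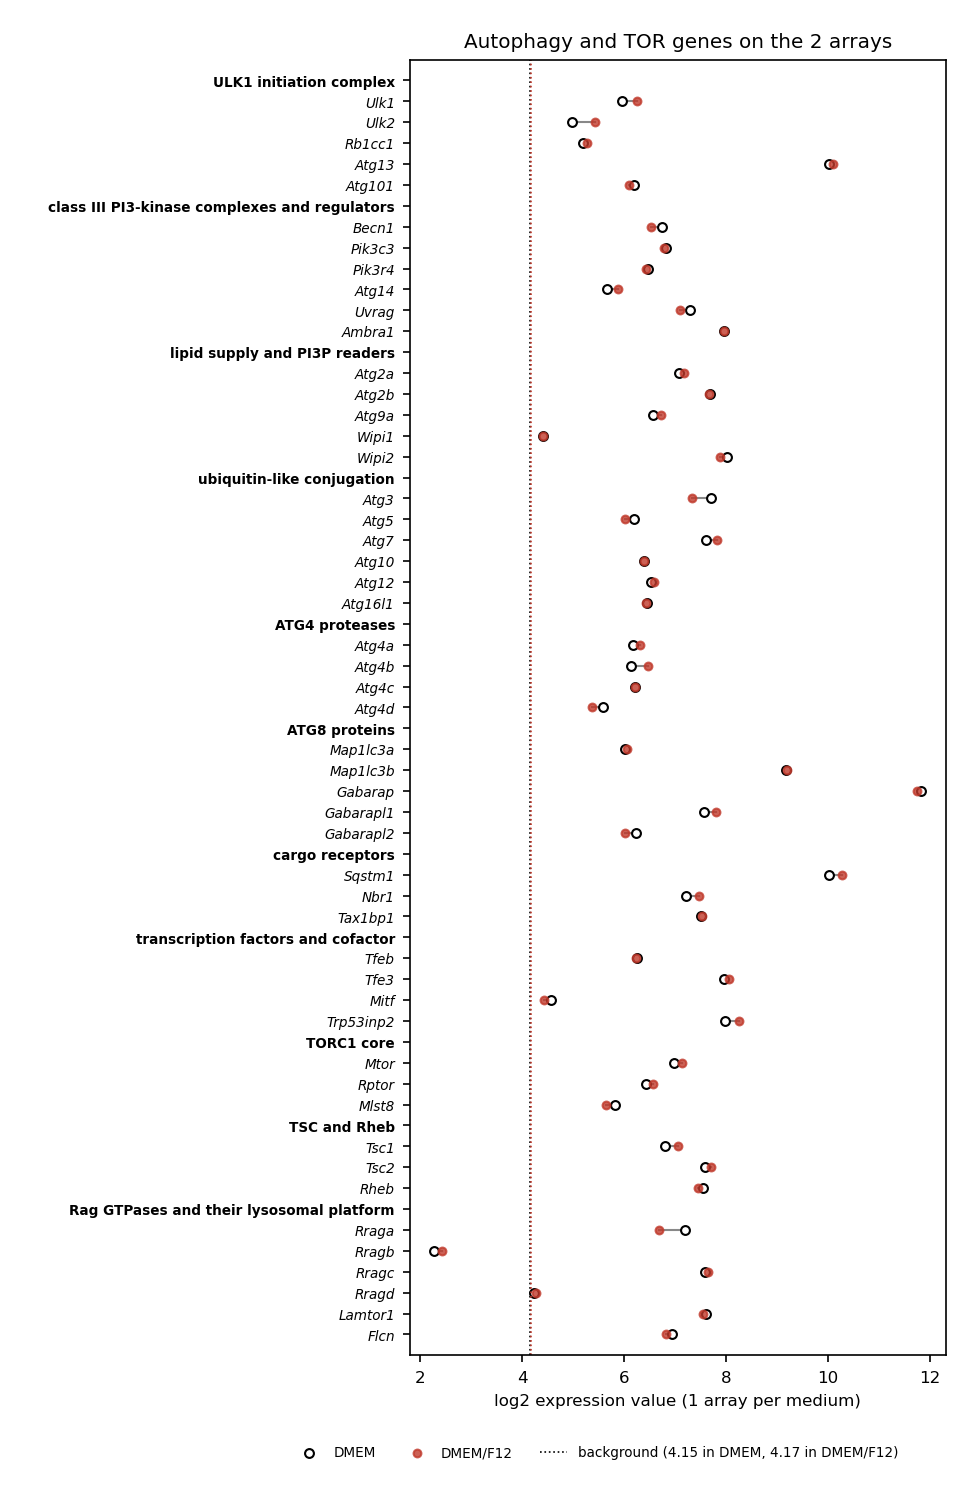
Log2 expression value (x axis) of the 50 measured autophagy and TOR genes (y axis, grouped by role), open circles for DMEM and red circles for DMEM/F12, joined by gray lines, with dotted lines at background. Most pairs nearly coincide, the widest gaps are those of Rraga, Ulk2 and Atg3, and Rragb alone lies left of the background lines.

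The ULK1 complex, which starts autophagosome formation and is the main autophagy target of TORC1, held both kinases among the higher genes. Ulk2 stood at 4.98 in DMEM and 5.43 in DMEM/F12 on the log2 scale, 0.45 or 1.37-fold higher, at the 97.7th percentile of genes above background. Its paralog Ulk1 had 5.96 and 6.25, a difference of 0.29 or 1.22-fold, at the 91.9th percentile. The scaffold genes lay closer together. Rb1cc1, which encodes FIP200, had 5.19 and 5.27, and Atg13 had 10.03 and 10.11. Atg101, which stabilizes ATG13, had 6.20 and 6.11. Thus 4 of the 5 genes were higher in DMEM/F12, as were 47.2% of all genes.

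The class III PI3-kinase marks the nascent membrane with the lipid PI3P. Of the 6 genes of its complexes and regulators 4 were slightly lower, as were 45.5% of all genes. Becn1, the Beclin 1 gene, had 6.75 (DMEM) and 6.54 (DMEM/F12), which is -0.21. Uvrag, whose product takes the place of ATG14 in the endosomal form of the complex, had 7.30 and 7.11. Atg14, which directs the complex to autophagosome formation, was the one higher gene, with 5.67 and 5.89 (0.22). The catalytic subunit gene Pik3c3 (6.83 and 6.79) and the regulatory subunit gene Pik3r4 (6.47 and 6.44) differed by -0.04 and -0.03. Ambra1, a scaffold that binds Beclin 1, was at 7.97 on both arrays, and none of the 6 genes reached 1.2-fold.
The genes that supply lipid to the growing membrane or read its PI3P differed by -0.13 to 0.15. Atg9a, a lipid scramblase of the vesicles that seed the membrane, had 6.57 and 6.72. Atg2a, a lipid transfer protein, had 7.08 and 7.18, while its paralog Atg2b had 7.69 and 7.675. Among the PI3P readers, Wipi2, which recruits ATG16L1, had 8.02 and 7.89. Wipi1 was at 4.41 on both arrays, close to background.

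**Figure D2:**
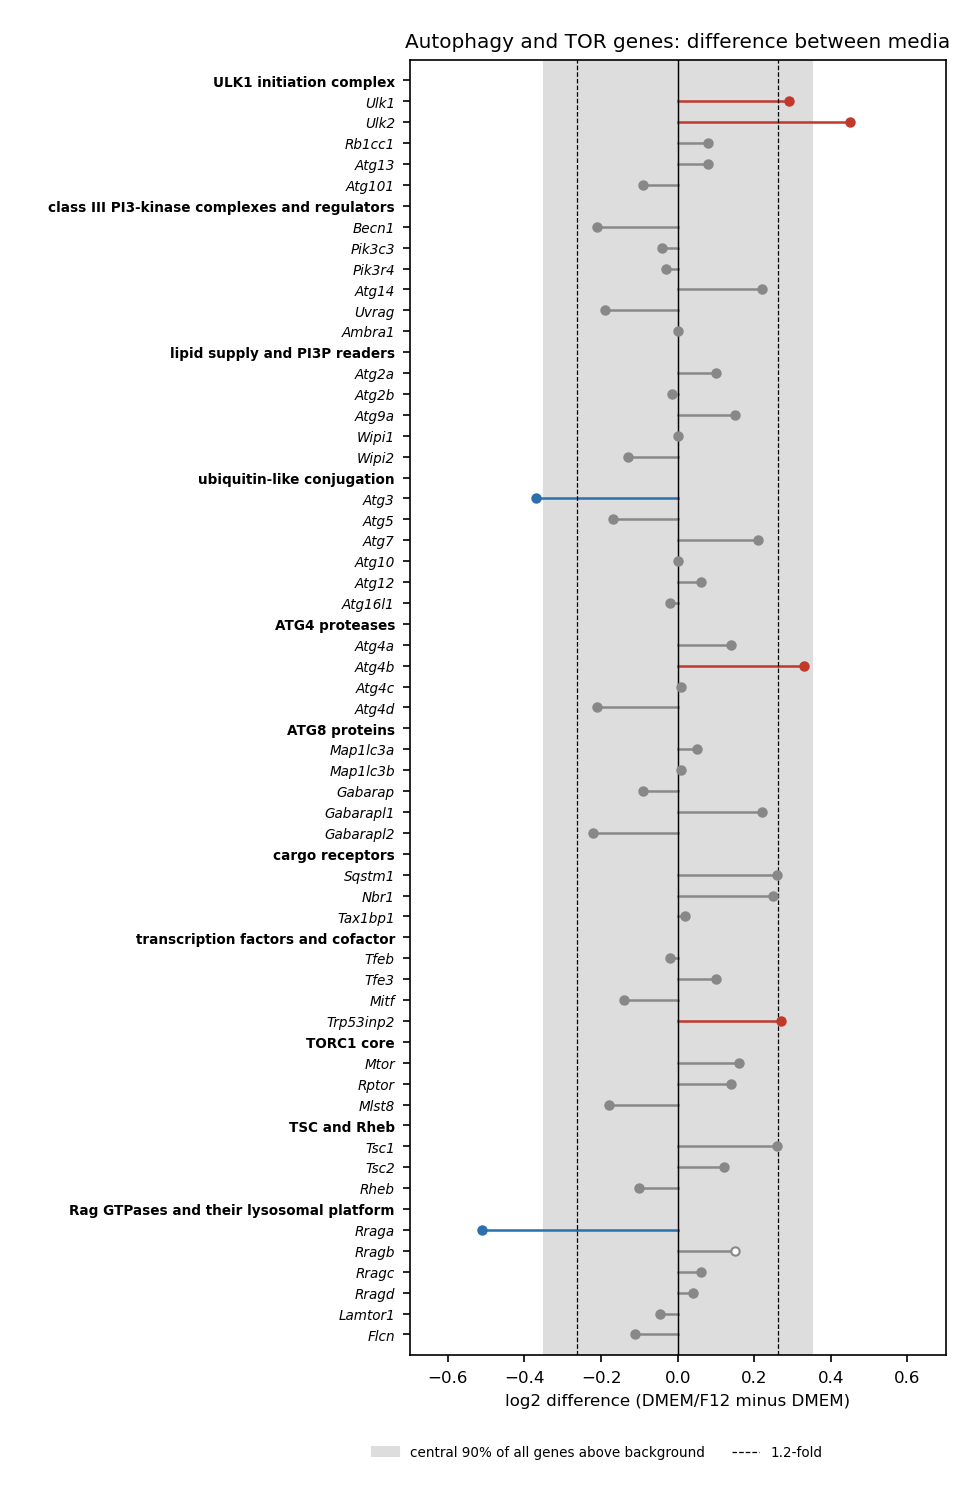
Differences of the 50 genes on the log2 scale (x axis, DMEM/F12 minus DMEM) by role (y axis), with red for at least 1.2-fold higher, blue for at least 1.2-fold lower and gray for the rest, and an open circle for Rragb, which was not above background. The gray band spans the 5th to the 95th percentile of all genes above background (-0.35 to 0.35), and 3 genes lie outside it, Ulk2 at 0.45, Atg3 at -0.37 and Rraga at -0.51.

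The conjugation genes attach ATG12 to ATG5 and the ATG8 proteins to lipid, and their 2 enzymes of ATG8 conjugation differed in opposite directions. Atg3, the E2-like enzyme, had 7.71 (DMEM) and 7.34 (DMEM/F12), a difference of -0.37 or 1.29-fold lower, at the 4.2nd percentile of genes above background. Atg7, the E1-like enzyme that acts before it, had 7.61 and 7.82 (0.21). The remaining genes of the group lay within 0.17 of 0. Atg5 had 6.20 and 6.03, Atg12, which is joined to it, 6.53 and 6.59, and their partner Atg16l1 6.46 and 6.44. Atg10, the E2-like enzyme of ATG12, was at 6.40 on both arrays.

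The ATG4 proteases trim newly made ATG8 proteins and later release them from membranes. Atg4b, which encodes the most active member, had 6.14 and 6.47, a difference of 0.33 or 1.26-fold, at the 94.2nd percentile. Atg4d differed the other way, with 5.59 and 5.38 (-0.21). Atg4a had 6.17 and 6.31, and Atg4c had 6.21 and 6.22. Within this family of 4 paralogs the differences thus spanned from -0.21 to 0.33.

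The ATG8 proteins themselves, which coat the autophagosome and bind cargo receptors, differed by no more than 0.22 in either direction. Gabarapl1 had 7.58 in DMEM and 7.80 in DMEM/F12 (0.22), and its paralog Gabarapl2 had 6.235 and 6.015 (-0.22). The values of Gabarapl2 are means of a cluster above and a cluster below background, described in the next paragraph. Gabarap had 11.84 and 11.75. Map1lc3b, whose protein LC3B is the usual marker of autophagosomes, had 9.185 and 9.195, and Map1lc3a had 6.02 and 6.07. Of the 5 genes 3 were higher and 2 lower, where 47.2% of all genes were higher and 45.5% lower. None of the 5 reached 1.2-fold. Map1lc3b, counted as higher, differed by -0.010 with each array centred on its median.

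Of the 50 genes 6 were measured by 2 clusters each, which gives 2 readings of the same pair of RNA samples and no replicate. The cluster numbers of these arrays follow the genome: for 99.6% of 18922 clusters of genes with 1 cluster, most of the 20 clusters nearest in number were of genes on the same chromosome in RefSeq GRCm38.p6. The same held for each of the 44 autophagy and TOR genes with 1 cluster. For Map1lc3b, Gabarapl2, Atg4a and Lamtor1, however, 1 of the 2 clusters was numbered among genes of another chromosome, with 0 of 20 neighbours on the gene's own. For Gabarapl2 this was the bright cluster, 10528546, with 9.00 and 8.78, while cluster 10575616, numbered among genes of its own chromosome, had 3.47 and 3.25, below background. Both differed by -0.22, but only the first was measured above background, and raising dim values to background gave a mean difference of -0.10. The bright cluster was numbered away from the gene, and the RNA it detected was not tested. The 2 clusters of Map1lc3b differed by 0.03 (9.18 and 9.21) and, on its own chromosome, by -0.01 (9.19 and 9.18). For Atg4a the own-chromosome cluster differed by 0.23 (5.93 and 6.16) and the other by 0.05 (6.41 and 6.46).
Mitf showed the widest disagreement, although both of its clusters were numbered on its own chromosome. Cluster 10540248 had 7.30 and 7.55, a difference of 0.25, and cluster 10540265 had 1.85 and 1.32, a difference of -0.53 far below background. The mean of the 2 clusters, -0.14, therefore took its sign from the dim cluster. Through that mean Mitf is counted among the lower genes of the list. The gap of 0.78 between the differences lies above the median gap of 0.13 over 777 genes with 2 clusters at any level. Of these 10% had a gap of 0.44 or more. Over the 524 genes whose 2 clusters were both above background, unlike those of Mitf, the median gap was 0.11. There 10% had a gap of 0.37 or more. The 2 clusters of Atg2b (-0.05 and 0.02) and of Lamtor1 (-0.11 on its own chromosome, 0.02 on the other) lay within 0.13 of each other.

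**Figure D3:**
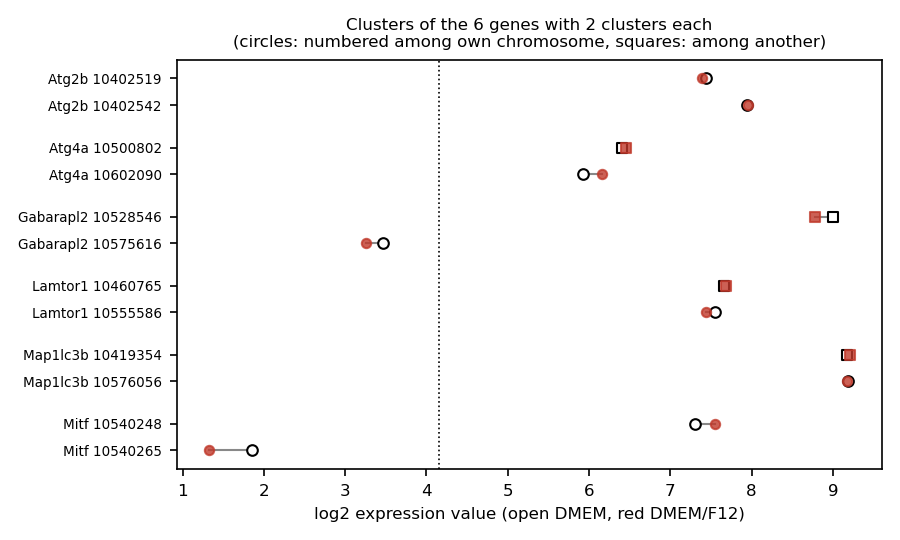
Log2 values (x axis) of the 12 clusters (y axis, gene and cluster number) of the 6 genes with 2 clusters, open for DMEM and red for DMEM/F12, with circles for clusters numbered among genes of the gene's own chromosome, squares for those numbered among another, and a dotted line at the DMEM background of 4.15. The dim clusters of Gabarapl2 and Mitf lie left of the line, and the Mitf clusters differ in opposite directions.

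The cargo receptors bind ubiquitin-tagged material and tether it to ATG8 proteins. The 3 measured genes were all higher in DMEM/F12, as were 47.2% of all genes. With each array centred on its median, Tax1bp1 was equal. Sqstm1, which encodes p62 and is itself degraded by autophagy, had 10.02 and 10.28 (0.26, just under the 1.2-fold limit). Nbr1 had 7.22 and 7.47 (0.25). Tax1bp1 had 7.51 and 7.53. The first 2 lay at the 89.7th and 88.9th percentiles of genes above background, so Sqstm1 and Nbr1 were within the range that many other genes reached.

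Of the transcription factors that drive lysosomal and autophagy genes, Tfeb and Tfe3 were nearly level. Tfeb had 6.25 and 6.23 and Tfe3 had 7.96 and 8.06. Mitf had the 2 discordant clusters described above, of which the one above background differed by 0.25. Trp53inp2, which encodes a nuclear cofactor that moves to autophagosomes and binds LC3, had 7.99 and 8.26, a difference of 0.27 or 1.21-fold, at the 90.5th percentile. With each array centred on its median this difference was 0.25, under the 1.2-fold limit.

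Among the TOR genes, the TORC1 kinase and its substrate adaptor were slightly higher. Mtor had 6.98 in DMEM and 7.14 in DMEM/F12 (0.16), and Rptor, the gene of the adaptor raptor, had 6.43 and 6.57 (0.14). Mlst8, a stabilizing subunit, differed the other way, with 5.83 and 5.65 (-0.18). The TSC complex is the brake on TORC1 upstream of it. Tsc1 had 6.80 and 7.06 (0.26) and Tsc2 had 7.59 and 7.71 (0.12), while the third subunit gene, Tbc1d7, which is not on the list, had 7.15 and 6.56 (-0.59). Rheb, the GTPase that activates TORC1 and is switched off by the TSC complex, had 7.56 and 7.46 (-0.10). None of the 6 listed genes of TORC1, TSC and Rheb reached 1.2-fold.

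The Rag GTPases, which bring TORC1 to the lysosome when amino acids are present, held the lowest gene of the list. Rraga stood at 7.19 (DMEM) and 6.68 (DMEM/F12) on the log2 scale, a difference of -0.51 or 1.42-fold lower, at the 1.2nd percentile of genes above background. Its close paralog Rragb, whose promoter holds CACGTG in 3 places, was at 2.27 and 2.42, below background on both arrays, so no difference was measured there. The partner GTPase gene Rragc had 7.60 and 7.66, and Rragd had 4.24 and 4.28, just above background. Lamtor1, which anchors the Rag platform in the lysosomal membrane, had 7.605 and 7.56, and Flcn, the activating protein for RagC and RagD, had 6.94 and 6.83. Of the 6 genes only Rraga reached 1.2-fold, in each of the alternatives of processing.

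**Figure D4:**
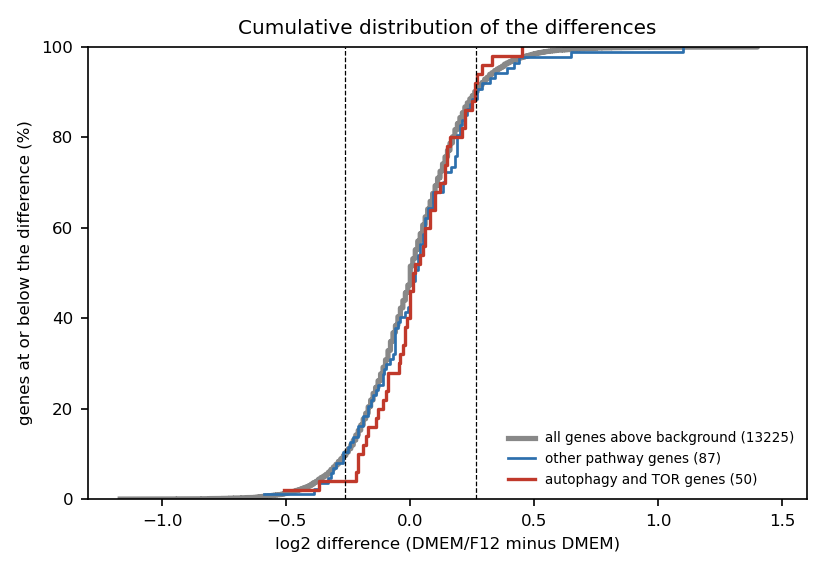
Share of genes at or below a given log2 difference (y axis, percent) against the difference (DMEM/F12 minus DMEM, x axis) for the 50 autophagy and TOR genes (red), the 87 other measured pathway genes (blue) and the 13225 genes above background (gray), with dashed lines at 1.2-fold. The curves run close together, and 88% of the 50 genes lie between the dashed lines, beside 80.5% of all genes above background.

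A second list holds 90 further genes of autophagy and TOR signalling, of which 87 were measured. Of these 47 (54%) were higher and 37 (42.5%) lower in DMEM/F12, beside 47.2% and 45.5% of all genes. The median difference was 0.02. At least 1.2-fold higher were 10 of 87 (11.5%, beside 11.2% of all genes) and at least 1.2-fold lower 9 (10.3%, beside 10.5%). At 1.5-fold there were 2 higher genes (2.3%, beside 0.928% of all genes) and 1 lower gene (1.15%, beside 0.727%). The largest was Trp53inp1, the paralog of Trp53inp2 and a p53 target that also binds ATG8 proteins, with 5.89 (DMEM) and 6.99 (DMEM/F12), a difference of 1.10. Its value was known when the list was written, so the shares of higher genes, 11.5% and 2.3%, include a gene chosen with its value known. Prkaa2, which encodes the catalytic subunit α2 of AMPK, the energy sensor that activates ULK1, had 7.00 and 7.65 (0.65 or 1.57-fold), while Prkaa1, the gene of the α1 subunit, had 8.58 and 8.65 and was picked after its value was seen. Tbc1d7, at -0.59 or 1.5-fold lower, was the 1 lower gene.
In each role the highest and lowest genes above background were as follows. Among regulators of amino acid sensing, Castor1, an arginine sensor, differed by 0.29 and Mios, of the GATOR2 complex, by -0.39. Among the partners of the Rag platform, Fnip1, which binds folliculin, differed by 0.34 and Lamtor5 by -0.27. Fnip2, the second folliculin partner, differed by 0.32, beside -0.11 for Flcn, and was picked after its value was seen. Among TOR complex subunits, Deptor, an inhibitor of TOR, differed by 0.27 and Prr5, of TORC2, by -0.32. The outputs of TORC1 lay between 0.25 for Lpin1 and -0.19 for Rps6kb2, with none at 1.2-fold.
On the autophagy side, Tecpr1, which acts at autophagosome-lysosome contacts, differed by 0.39 and Tmem41b, a lipid scramblase, by -0.245. That of Tmem41b came from a cluster numbered among another chromosome (-0.49), while its own-chromosome cluster was at 5.33 on both arrays. In the fusion machinery Vps41 differed by 0.24 and the SNARE gene Vamp8 by -0.31. Among initiation genes Wac differed by 0.18 and Ulk3 by -0.21. Among receptors Bnip3, which serves mitochondrial clearance, was lowest at -0.30. The ferritin receptor gene Ncoa4, at 0.44 with 0.43 and 0.45 in its 2 clusters, and Calcoco1, at 0.42, were higher and were picked after their values were seen.

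**Figure D5:**
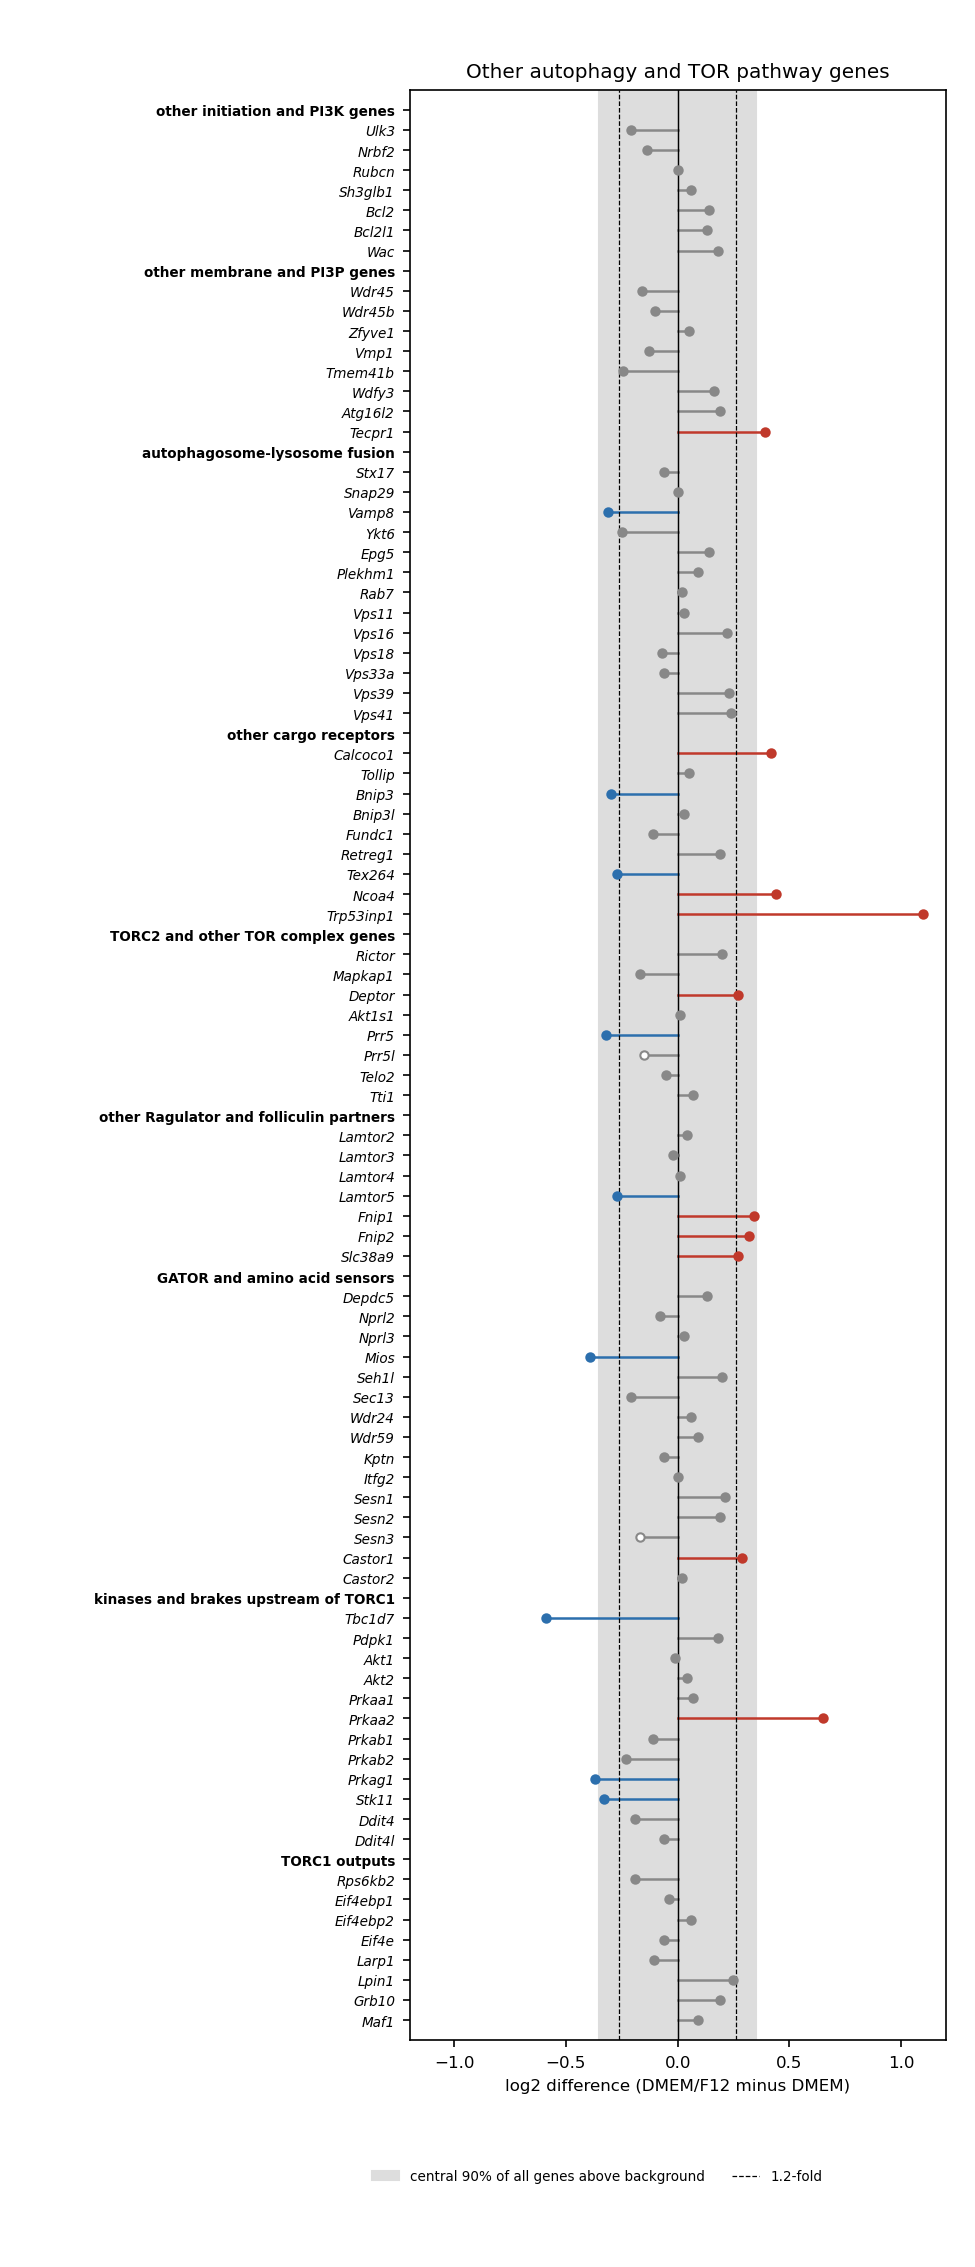
Differences of the 87 further autophagy and TOR pathway genes on the log2 scale (x axis, DMEM/F12 minus DMEM) by role (y axis), with red for at least 1.2-fold higher, blue for at least 1.2-fold lower, gray for the rest, open circles for genes not above background, and a gray band over the central 90% of all genes above background. Trp53inp1 at 1.10, Prkaa2 at 0.65 and Tbc1d7 at -0.59 lie farthest from 0.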

How the data were processed

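The authors processed both arrays in Transcriptome Analysis Console and Affymetrix Expression Console, which the methods and the submitters' processing notes name, and log2 expression values of 28944 transcript clusters were deposited with 2 decimals. Not given in the sources used here are program versions, summarization, any normalization and the genome build. Medians of the log2 values were 4.75 in DMEM and 4.77 in DMEM/F12, and no scaling was added. Clusters with exactly 1 symbol in the platform annotation (21789) were named, 1621 with several and 5534 with none were not, and 999 genes took a mean over several clusters. The genes and lists were chosen with earlier results of these data known. All measured members are named, and of the further genes the highest and lowest above background in each role, those at 1.5-fold and Trp53inp1. Fnip2, Ncoa4, Calcoco1, Prkaa1 and Slc38a9 were named after their values were seen. With 1 array per medium, no p-value or error can be given, and the number of arrays limits the precision. Differences of 1.2-fold and 1.5-fold are descriptive limits. Promoters were read from RefSeq (GRCm38.p6). Calculations used Python 3.11.15, numpy 2.4.6, pandas 2.3.3 and statsmodels 0.14.6, with plots by matplotlib 3.10.9, and were tested on simulated data. The alternatives were median centring, quantile normalization, a loess curve (span 0.3), only genes above background, values raised to background, the brightest cluster per gene, clusters with several symbols, a 2-fold limit and, added after seeing the data, only clusters numbered among genes of the gene's own chromosome.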

Additional observations from a re-analysis of the deposited data

How the results depend on the processing

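Shifts of a log2 value by over 0.1 and of a count by over 1.5 times were treated as changes. The median difference of the 50 genes lay between -0.005 (median centring) and 0.035 (brightest cluster per gene), so its sign has no weight. The median over all genes in these settings was -0.02 and 0.00. For the 87 further genes the median lay between 0.00 and 0.04. The 4 genes at least 1.2-fold higher became 3 with median centring (without Trp53inp2), 6 with quantile normalization (with Sqstm1 and Tsc1) and 7 with loess centring (with Nbr1 as well), and were the same 4 in the other settings at that limit. Rraga and Atg3 were the 2 lower genes in each setting at that limit. Shares of all genes past the limit were not counted after median centring, quantile normalization or loess centring, so these counts have no share beside them. With a limit of 1.5-fold or of 2-fold the counts were 0 and 0. Of single genes, raising values to background moved Gabarapl2 to -0.10, Mitf to 0.135 and Rragb to 0.02, and the brightest cluster alone put Mitf at 0.25. No paired analysis was possible because there was 1 array for each medium. Signal over background limits Rragb, Rragd, Wipi1 and the dim clusters of Gabarapl2 and Mitf.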

Other observations

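Over the whole array, 76.7% of 2827 clusters of genes with several clusters were numbered among genes of the gene's own chromosome, beside 99.6% of clusters of genes with 1 cluster. For Slc38a9, the lysosomal arginine transporter of the Rag platform, picked after its values were seen, both clusters were numbered on its own chromosome, and the dimmer differed by 0.52 (4.57 and 5.09) while the brighter differed by 0.02 (6.99 and 7.01).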
